A study of Homo sapiens with 6 samples.

Results

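Glucose enters most cells through facilitative transporters of the SLC2A (GLUT) family and is trapped inside by hexokinases. The set described here holds 2 of these transporters and 8 enzymes of glycolysis: SLC2A1, SLC2A3, HK1, HK2, PFKFB3, PFKFB4, PFKP, ALDOC, ENO2 and LDHA. The 10 genes were taken from 18404 measured genes by gene symbol, and each had exactly 1 probe set annotated with that symbol alone. They were chosen with results of the comparison below in view, so that their differences between the groups are given as a description, with no p-value of a single gene. How many passed a threshold is given only beside the share of all genes that did.

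RNA came from PrEC, described by its submitters as an immortalized normal prostate epithelial line, in 6 samples with 1 array each. Of these, 3 carried the hairpin named shNT and served as the reference, and 3 carried a hairpin against PKCλ/ι, the atypical protein kinase C encoded by PRKCI, written shPKCi here. All were grown in prostate epithelial growth medium in air with CO2 and taken 48 hours after plating, under basal conditions, and the series calls the samples of each line biological replicates. The labels name 1 hairpin line and 1 control line, without the hairpin sequences or whether each line is a clone or a pool. Standard errors and p-values here thus measure the spread between samples of a line, and not between independent hairpins. Lower PRKCI and any other difference between the lines cannot be told apart.

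Glycolysis splits glucose into pyruvate, and in proliferating epithelial cells much of that pyruvate is reduced to lactate. Control over the flow lies mainly at uptake, at hexokinase and at phosphofructokinase, whose strongest activator, a fructose bisphosphate, is made and removed by the PFKFB enzymes. Several steps have a widely expressed isozyme and a second one with a narrower distribution, such as aldolase A and C or enolase 1 and 2. Many of these genes are textbook targets of the hypoxia-inducible factors, which bind a short core written ACGTG or GCGTG, and several are also targets of MYC.

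The target of the hairpin was lower in every shPKCi array, where PRKCI intensities ran from 753.8 to 810.2 against 1428 to 1843 in shNT. Epithelial markers were bright, with CDH1, EPCAM, KRT8 and KRT18 at or above the 95.9th percentile of mean signal over all genes. The luminal prostate markers measured (KLK3, KLK2 and ACP3) lay between the 31.4th and 34.1th percentile, and CHGA, SYP and NCAM1, markers of neuroendocrine cells, between the 14.8th and 30.4th. No marker has a value of 0 on this scale, and no detection calls were used here. The array of shNT replicate 2 stood apart, with a correlation across genes of 0.974 to 0.989 with the other arrays, against 0.982 to 0.996 among the remaining 5.

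The sequence just before the transcription start was available for 9 of the 10 genes (RefSeq, GRCh38.p14; 21 start sites, since several genes have more than 1), and SLC2A3 was not among them. The 250 bases before each start were searched on both strands for ACGTG and GCGTG, which read CACGT and CACGC on the other strand. An ACGTG on each strand can overlap in the palindrome CACGTG, which was counted as 1 site. The windows of 5 genes are shown because they span the set from the genes with large differences to LDHA, which had the smallest; capitals mark the searched letters.
SLC2A1: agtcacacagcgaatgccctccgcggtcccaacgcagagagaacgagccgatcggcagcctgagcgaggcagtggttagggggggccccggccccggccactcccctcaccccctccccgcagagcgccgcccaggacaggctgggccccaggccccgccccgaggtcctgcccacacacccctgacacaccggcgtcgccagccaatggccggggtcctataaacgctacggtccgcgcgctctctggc
HK2: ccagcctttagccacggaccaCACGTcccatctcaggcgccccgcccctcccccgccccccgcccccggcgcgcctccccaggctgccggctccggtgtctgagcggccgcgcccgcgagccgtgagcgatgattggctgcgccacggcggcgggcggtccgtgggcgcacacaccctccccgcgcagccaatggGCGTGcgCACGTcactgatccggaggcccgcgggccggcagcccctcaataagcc
ALDOC: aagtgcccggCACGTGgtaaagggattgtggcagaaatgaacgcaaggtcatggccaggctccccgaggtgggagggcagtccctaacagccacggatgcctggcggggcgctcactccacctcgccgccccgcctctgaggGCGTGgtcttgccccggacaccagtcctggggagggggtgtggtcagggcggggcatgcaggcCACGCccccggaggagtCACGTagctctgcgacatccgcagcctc
ENO2: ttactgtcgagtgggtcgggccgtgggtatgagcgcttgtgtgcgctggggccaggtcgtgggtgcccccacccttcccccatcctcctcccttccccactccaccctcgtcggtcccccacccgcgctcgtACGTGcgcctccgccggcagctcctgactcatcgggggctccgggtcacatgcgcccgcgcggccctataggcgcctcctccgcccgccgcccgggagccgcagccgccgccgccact
LDHA: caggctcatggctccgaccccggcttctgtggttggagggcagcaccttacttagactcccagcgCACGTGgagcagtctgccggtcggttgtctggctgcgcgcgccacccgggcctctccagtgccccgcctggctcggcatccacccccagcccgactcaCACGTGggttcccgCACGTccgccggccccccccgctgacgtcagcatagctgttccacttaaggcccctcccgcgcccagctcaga
The windows lie at chr1:42958869-42959118 (minus strand, SLC2A1), chr2:74833877-74834126 (plus, HK2), chr17:28576896-28577145 (minus, ALDOC), chr12:6914330-6914579 (plus, ENO2) and chr11:18394313-18394562 (plus, LDHA), each printed 5′ to 3′ in the direction of its gene. For HK2 and LDHA, which have 2 starts each in the table, the one farther upstream is shown.

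These letters were common among promoters in general. At least 1 site was found in 12 of the 21 windows of the set, in 8 of the 9 genes, and in 43.2% of all 35116 windows of that length. The 43.2% is a share of windows, to be set beside the 12 of 21. A gene with several windows has more chances of a site, and no share by gene was computed for all genes. The ALDOC window held 4 sites, those of HK2 and LDHA held 3 each, the ENO2 window held 1 and the SLC2A1 window held 0. LDHA has 2 copies of the palindrome CACGTG, at 185 and 87 bases before the start (counted to the first letter of the site), and ALDOC has 1 at 240 bases. The palindrome was also in the second windows of HK2 and PFKFB3, so that 4 of the 21 windows hold it, against 6.34% of all windows. A match is a run of letters and not a measured binding site, and no match in the SLC2A1 window covers only these 250 bases.

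All 10 genes had a lower mean in shPKCi than in shNT, by between 0.15 and 4.10 on the log2 scale. In 8 of them every shPKCi array lay below every shNT array, which was so for 17.8% of all genes. The same 8 were below an adjusted p of 0.05 (limma, over all genes), against 8.95% of all genes lower and 9.55% higher at that threshold; since the set was chosen on this comparison, nothing is read from these shares. The median log2 fold change was -0.78 in the set and -0.02 over all genes. In order of size the differences ran SLC2A3, ENO2, SLC2A1, ALDOC, HK2, PFKFB3, HK1, PFKP, PFKFB4 and LDHA. From SLC2A1 down to LDHA, each gene and the next differed by less than 2 combined standard errors (with the genes taken as independent), while SLC2A3 and ENO2 differed by 2.24, and ENO2 and SLC2A1 by 0.60, both beyond that. RNA was pooled over all cells of a sample, so that fewer cells making a transcript and less of it per cell cannot be told apart.

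**Figure D1:**
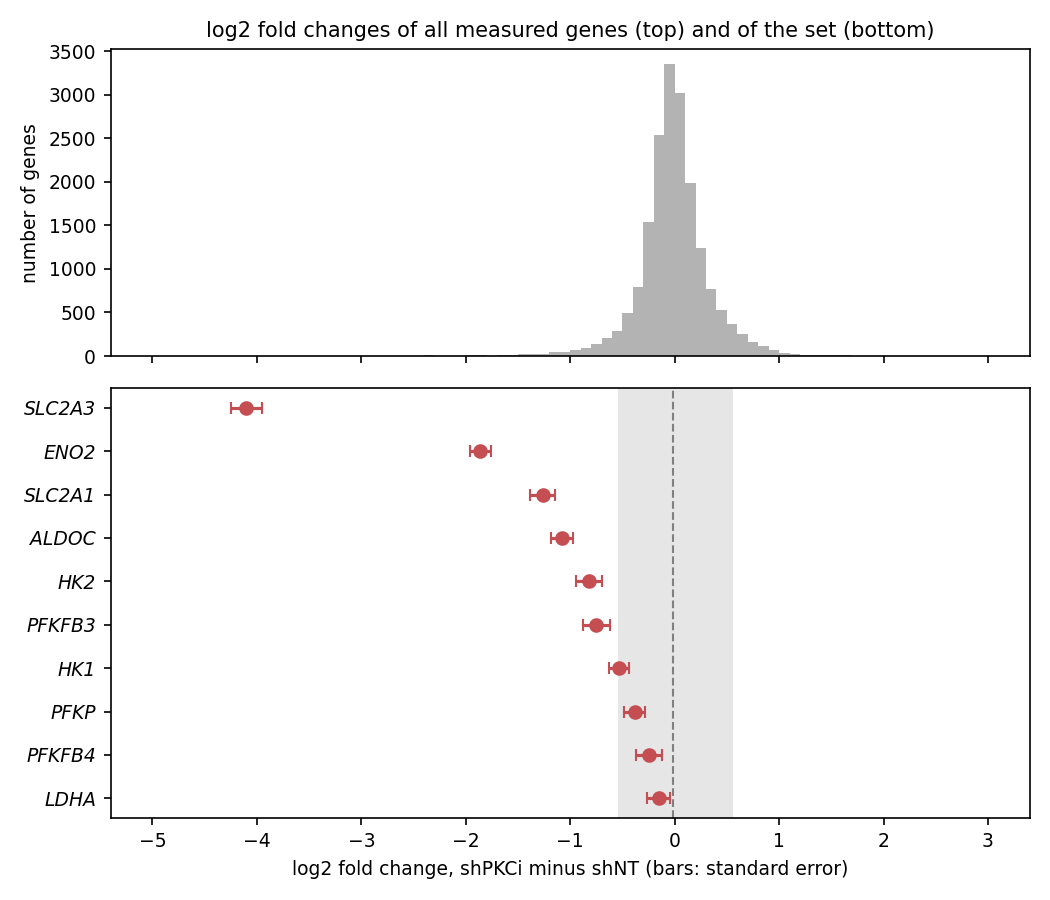
The upper panel is a histogram of the log2 fold changes (shPKCi minus shNT) of all 18404 genes, and the lower panel shows the 10 genes of the set as points with standard errors, the 5th to 95th percentile of all genes shaded (-0.54 to 0.55) and their median dashed. SLC2A3 lies farthest to the left at -4.10, and HK1, PFKP, PFKFB4 and LDHA fall inside the shaded range.

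Both glucose transporters were lower. SLC2A3 (GLUT3, a high-affinity transporter best known from neurons; probe set 7960865) had intensities of 2584, 1968 and 2412 in shNT replicates 1 to 3 and of 163.8, 121.8 and 121.2 in shPKCi replicates 1 to 3. The 2 groups were separated by 3.59 log2 units at their closest arrays. The means of the log2 values, 11.17 ± 0.20 for shNT and 7.07 ± 0.25 for shPKCi (SD, n = 3), differed 17.2-fold (log2 fold change -4.10, SE 0.15). Only 1 of the 18404 genes, CASP14, had a lower log2 fold change.

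SLC2A1 (GLUT1, the widely expressed basal transporter; probe set 7915472) had intensities of 1065, 1367 and 1149 in shNT and of 452, 496 and 539.9 in shPKCi. The lowest shNT array was about 0.98 log2 units above the highest shPKCi array. The fold change was -1.26 (SE 0.12), or 2.40-fold lower.

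The hexokinases phosphorylate glucose on entry, HK1 as the constitutive form and HK2 as the inducible one. HK2 (probe set 8042942) had intensities of 485.9, 594.7 and 449 in shNT and of 269.6, 306.6 and 286 in shPKCi, with no overlap. It was 1.76-fold lower (log2 fold change -0.82, SE 0.12). HK1 (probe set 7928019) had 240.3, 265 and 240.1 in shNT and 163.2, 172.7 and 179.7 in shPKCi, again without overlap, and was 1.45-fold lower (-0.53, SE 0.10).

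At the phosphofructokinase step the platelet-type subunit gene and 1 of the 2 effector enzyme genes were lower in every array. PFKFB3, which makes the activating fructose bisphosphate (probe set 7926037), had intensities of 251, 220.2 and 213 in shNT and of 115, 141.7 and 152 in shPKCi, and was 1.68-fold lower (log2 fold change -0.75, SE 0.13). PFKP (probe set 7925876) had 552, 583 and 641 in shNT and 435, 456 and 469 in shPKCi, and was 1.30-fold lower (-0.38, SE 0.10). The closest arrays of the groups were only 0.24 log2 units apart for PFKP.

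PFKFB4, the other effector enzyme gene, was dim and its groups overlapped. Its intensities (probe set 8086961) were 35, 41.1 and 40.1 in shNT and 30.5, 30.1 and 37.6 in shPKCi, where replicate 3 lay above shNT replicate 1. The log2 fold change was -0.25 (SE 0.12; 95% confidence interval -0.51 to 0.02), and its signal stood at the 31.7th percentile of all genes.

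Further down the pathway, the narrowly expressed isozymes of aldolase and enolase were among the largest differences. ALDOC, aldolase C, known from brain (probe set 8013660), had intensities of 357, 350.4 and 319.9 in shNT and of 153, 156 and 179 in shPKCi, and was 2.11-fold lower (log2 fold change -1.08, SE 0.10). ENO2, neuron-specific enolase (probe set 7953532), had 186, 178 and 186 in shNT and 47.5, 47.8 and 56.5 in shPKCi. ENO2 varied little within shNT (SD 0.04 log2 units) and the groups lay 1.66 log2 units apart at their closest arrays; it was 3.63-fold lower (-1.86, SE 0.10), the 40th lowest of all genes. The neuroendocrine and neuronal markers measured beside it summed to intensities of 140.9 to 170.7 in shNT and 136.7 to 138 in shPKCi over 6 genes. Of these, MAP2 fell by 0.63 (limma adjusted p = 0.00875) and none rose. At an unadjusted limma p under 0.05, 2 were lower, MAP2 and SNAP25 (-0.31), and 0 were higher. The part of these markers in the ENO2 difference was not tested.

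LDHA, the subunit that favours making lactate, had the smallest difference of the set. Its intensities (probe set 7938777) were 5593, 5088 and 6007 in shNT and 5447, 5046 and 4531 in shPKCi, so that the groups overlapped. The log2 fold change was -0.15 (SE 0.11; 95% confidence interval -0.40 to 0.10), at the 99.8th percentile of signal, where array values can flatten. LDHA has many processed pseudogenes whose sequence can share probes. Whether flattening or shared probes bear on the LDHA value was not tested.

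**Figure D2:**
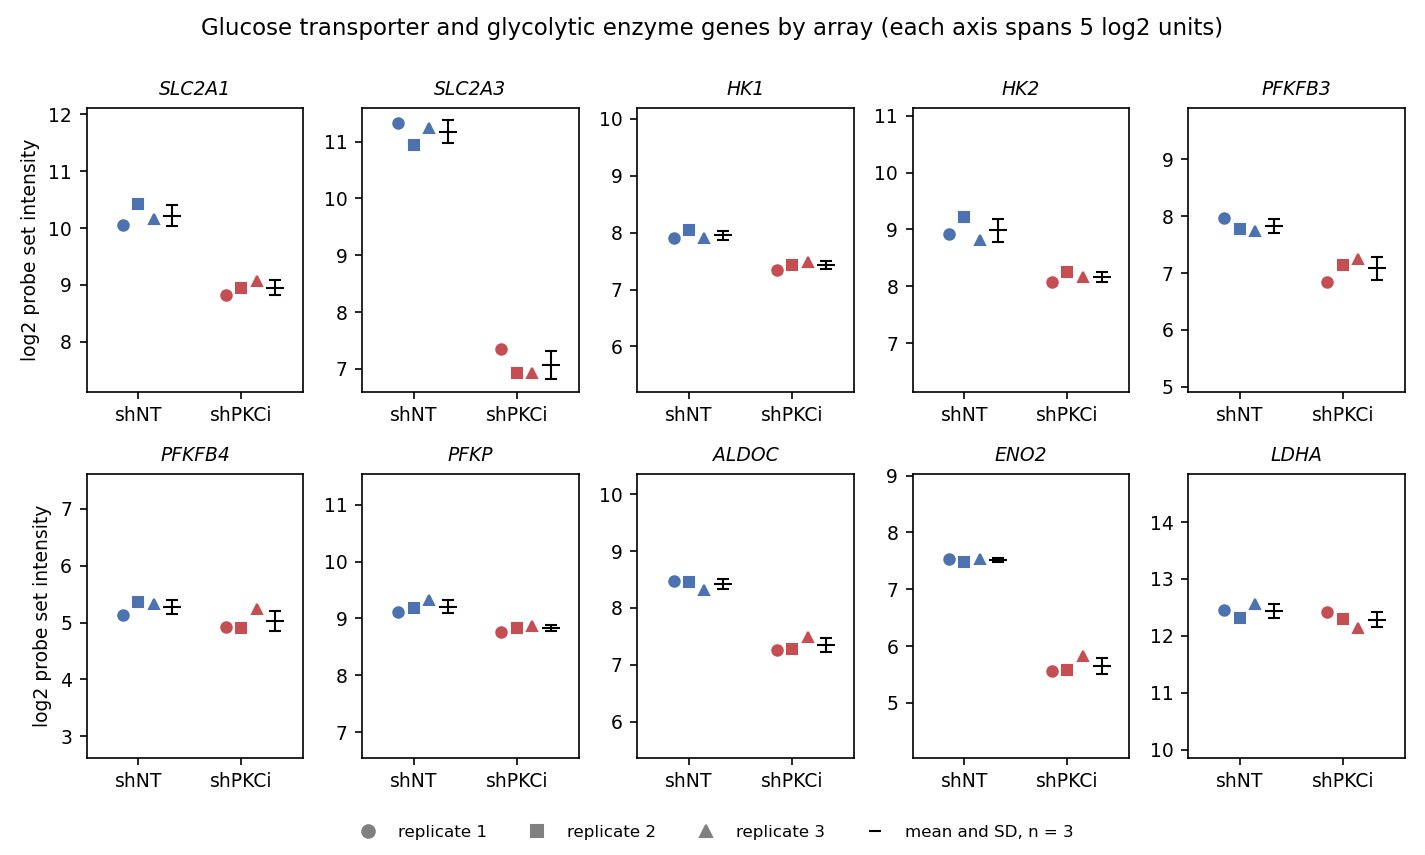
Log2 probe set intensity of each gene of the set in every array, with shNT in blue and shPKCi in red, replicate numbers as symbols, and the mean and SD (n = 3) in black; every axis spans the same number of log2 units. The groups are separate in 8 genes and overlap in PFKFB4 and LDHA.

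Within the groups the genes did not move as a block. In shPKCi, replicate 1 had the lowest value in 7 of the 10 genes and replicate 3 the highest in 7, but for SLC2A3 and LDHA replicate 1 was the highest of the 3. In shNT, replicate 2 was highest for SLC2A1, HK1, HK2 and PFKFB4 and lowest for SLC2A3, ENO2 and LDHA. Averaged over the set, deviations from each gene's mean over 6 arrays were between 0.55 and 0.58 in the shNT arrays and between -0.60 and -0.50 in the shPKCi arrays. The differences of all 10 genes stayed negative in each of 13 other ways of processing (12 for PFKFB4, which a filter on signal left out). SLC2A3 ranged from -4.25 to -4.02. For these genes a replicate block, the signal filter, the mean of probe sets and a trended variance cannot change the fold change. Nor can leaving out 1 array or weighting the arrays turn the sign of a gene whose groups do not overlap. Median centring shifts the fold change of every gene by the same amount. PFKP was no longer past the threshold without shNT replicate 3 or without any 1 of the 3 shPKCi replicates. The counts for the set in such fits are given at the end, beside the range for all genes.

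The epithelial markers were not level between the groups either. The 7 basal markers summed to intensities of 11810 to 12910 in shNT and 9822 to 10005 in shPKCi. Of these, 5 were lower and none higher (limma, adjusted p under 0.05, and 0 higher unadjusted), against 8.95% of all genes lower and 9.55% higher. DSG3 fell by 1.42, while KRT5 at -0.27 did not pass (limma adjusted p = 0.0682) and ITGA6 had 0.06 with overlapping groups. The 4 general epithelial markers summed to 6630 to 7114 and to 8143 to 8631, with EPCAM higher by 0.60. CDH1 had -0.29, KRT8 0.34 and KRT18 0.27, and none of these 3 passed (limma adjusted p = 0.0574, 0.0624 and 0.218). The part of such shifts in the values of the set was not tested.

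The genes whose profile over the 6 arrays was most like that of SLC2A3, each centred on its own mean, were NDRG1, INPP5D, LOX, CASP14 and SERPINB3. Their root mean square differences from it were 0.48, 0.54, 0.54, 0.58 and 0.65 log2 units. With 2 groups of arrays this ranking mostly picks genes with a similar difference between the groups, and it is given as a description.

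The other genes of glucose metabolism were counted in 10 lists written by role, without the set. Of 110 genes 99 were measured, of which 17 fell (17.2%), 9 rose (9.09%) and 73 did not pass (limma, adjusted p under 0.05). The median log2 fold change of the 99 was -0.09. Over all genes 8.95% were lower and 9.55% higher at that threshold. From uptake to lactate, 6 of 53 measured genes fell (11.3%) and 2 rose (3.77%). Outside that main line, 4 of 14 glycogen genes fell and 2 rose, and of 8 genes for the entry of pyruvate into mitochondria 3 fell and 1 rose. Of 10 regulators 2 fell and 2 rose, of 5 hexosamine genes 1 fell and 2 rose, and of 9 pentose phosphate genes 1 fell and none rose (0 higher at an unadjusted p under 0.05). Without shPKCi replicate 1, 14 of the 99 fell and 2 rose, and without shPKCi replicate 2, 14 fell and 3 rose.

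Of 16 other transporters, 3 fell (18.8%, against 8.95% of all genes) and none rose in limma (0 higher at an unadjusted p under 0.05). SLC2A14, a close copy of SLC2A3 beside it in the genome, fell by 1.10 (SE 0.17, limma adjusted p = 0.00165), with intensities of 169.8, 118 and 115 in shNT and 52.2, 66.2 and 67.7 in shPKCi. Transcripts of close copies may bind each other's probes, which was not tested. Within shNT, replicate 1 was the highest array for both genes. Within shPKCi, replicate 1 was the highest array for SLC2A3 and the lowest for SLC2A14. SLC2A12, which encodes GLUT12, fell by 0.67 (adjusted p = 0.0024), and the dim sodium-coupled transporter gene SLC5A1 fell by 0.93 (adjusted p = 0.000766). SLC2A6 did not pass, at 0.08 (adjusted p = 0.744).

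Isozymes of the same step differed in their values. PFKL, the liver-type phosphofructokinase, fell by 0.68 (SE 0.13, limma adjusted p = 0.0069), with intensities of 169, 219.9 and 158 in shNT and 116, 119 and 103.9 in shPKCi, whereas PFKM, the muscle type, had 0.11 (95% confidence interval -0.12 to 0.35). PFKFB2 had 0.33 (adjusted p = 0.0731) and PFKFB1 -0.43 (adjusted p = 0.178). The hexokinase genes HK3 and HKDC1 were dim, at -0.15 and 0.10, and neither passed; ADPGK, an ADP-dependent glucokinase gene, rose by 0.36 (adjusted p = 0.0267), but did not pass without shNT replicate 3 or without any 1 of the 3 shPKCi replicates (adjusted p up to 0.126).

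Enzymes of the lower pathway that every cell uses had log2 fold changes from -0.50 (PGK1) to -0.05 (PKM). PGK1, phosphoglycerate kinase, fell by 0.50 (SE 0.09, limma adjusted p = 0.0052), from intensities of 1440, 1346 and 1446 in shNT to 1044, 998 and 957 in shPKCi. GAPDH stood at -0.29 (adjusted p = 0.0553), ALDOA at -0.29 (adjusted p = 0.0832), ENO1 at -0.17 (adjusted p = 0.307) and PKM at -0.05 (adjusted p = 0.804). GAPDH and ALDOA did pass in 4 of 13 alternatives each. Against these, ALDOC had -1.08 and ENO2 -1.86. The difference between the isozymes was not tested, since ALDOC and ENO2 were chosen on this comparison. GAPDH, ENO1 and PKM stood at percentiles 99.9, 99.5 and 99.2 of signal, where array values can flatten, and ALDOA at 86.2. Whether flattening bears on the values of these genes was not tested. TPI1 fell by 0.38 (adjusted p = 0.0295), but not without shNT replicate 1, shPKCi replicate 1 or shPKCi replicate 2, where its adjusted p reached 0.124. Its second, dimmer probe set had 0.21 (SE 0.28), and the mean of both had -0.09. The muscle enolase gene ENO3 rose by 0.56 at low signal (adjusted p = 0.025), and did not pass without shNT replicate 1 or 2 or without shPKCi replicate 1 or 3 (adjusted p up to 0.0918).

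Of 9 measured genes for other lactate dehydrogenases and monocarboxylate carriers, 0 passed with limma and 0 had an unadjusted p under 0.05. LDHB, the subunit that favours using lactate, had a log2 fold change of 0.20 (95% confidence interval -0.05 to 0.45), with the opposite sign to LDHA. The carrier genes SLC16A1 and SLC16A3 were not analysed here.

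**Figure D3:**
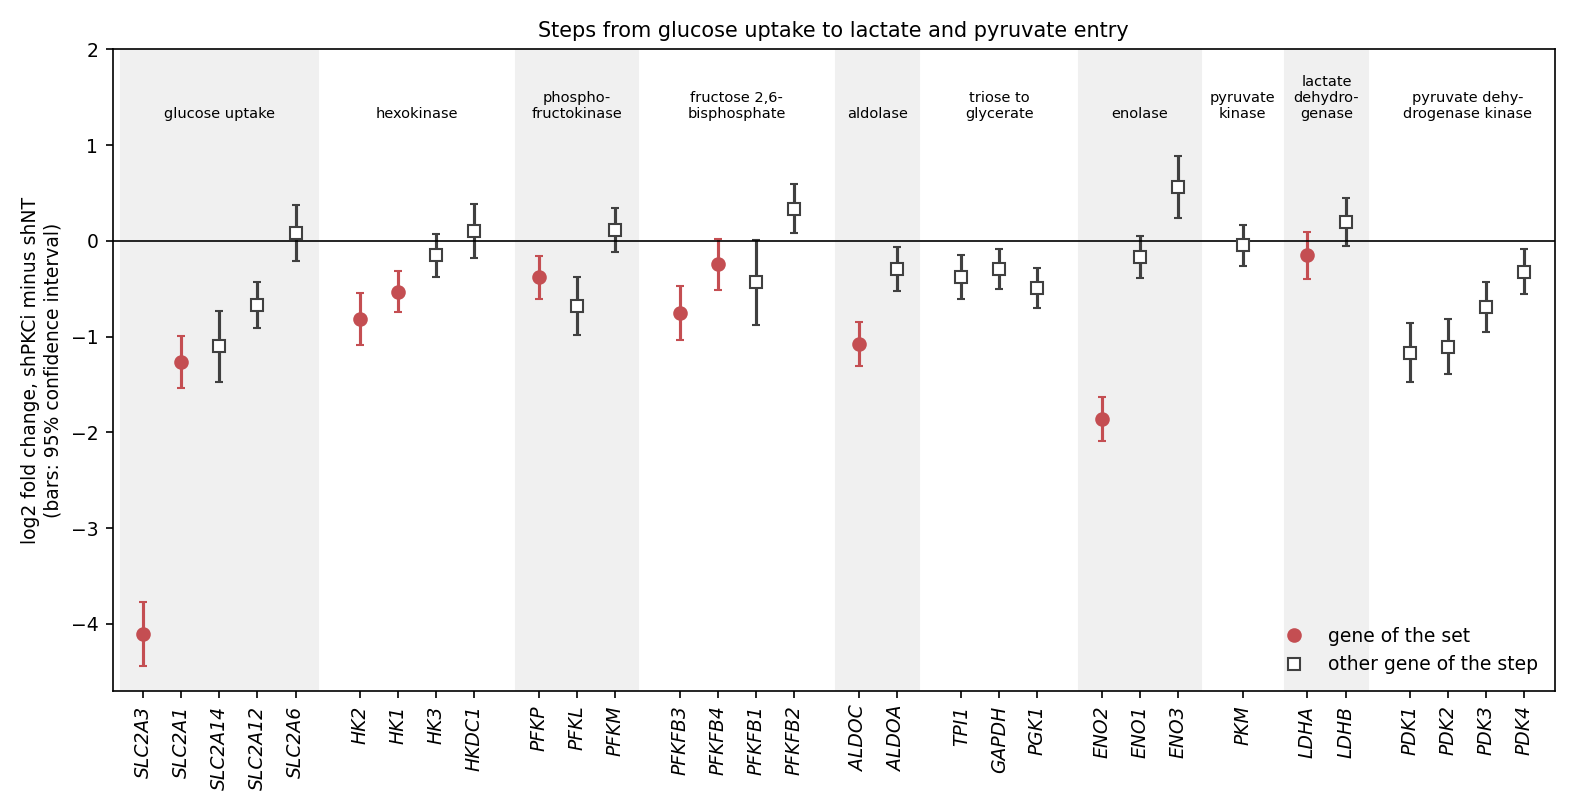
Log2 fold changes (shPKCi minus shNT) with 95% confidence intervals from limma, unadjusted for the number of genes, for the set (filled circles) and for other genes of each step (open squares), ordered along the pathway. SLC2A3 at -4.10 and ENO2 at -1.86 lie lowest. Intervals that include 0 are seen in the set for PFKFB4 and LDHA, and outside it for genes such as PFKM, ENO1, PKM and LDHB.

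Of the 4 pyruvate dehydrogenase kinases, which restrain the entry of pyruvate into the citric acid cycle, 3 fell. PDK1 had intensities of 692, 526 and 722 in shNT and of 257.6, 302 and 298.6 in shPKCi, and fell by 1.17 (SE 0.14, limma adjusted p = 0.000414). PDK2 fell by 1.10 and PDK3 by 0.69 (adjusted p = 0.000385 and 0.00292), and PDK4 had -0.32 (adjusted p = 0.0597). MPC1, a subunit of the mitochondrial pyruvate carrier, rose by 0.42 (adjusted p = 0.0131), but not without shPKCi replicate 1 or 2 (adjusted p up to 0.065).

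Genes of glycogen handling went both ways. PPP1R3B and PPP1R3C, which bring a protein phosphatase to glycogen, fell by 1.27 and 1.14 (limma adjusted p = 4.55e-05 and 0.000291). PGM1, which links glycogen to glycolysis, fell by 0.71, and the liver-type phosphorylase gene PYGL fell by 0.40 (adjusted p = 0.00092 and 0.0129). PYGL did not pass without shPKCi replicate 1 or 2 (adjusted p up to 0.0606). PGM2L1, which makes glucose bisphosphate, rose by 0.90 (adjusted p = 0.000318). PYGB rose by 0.35 (adjusted p = 0.0495), and passed without shNT replicate 2 alone among the 6 fits without 1 array (adjusted p up to 0.16).

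In the hexosamine branch, which makes sugars for protein glycosylation, GFPT1 and GNPNAT1 rose by 0.38 and 0.58 (limma adjusted p = 0.0163 and 0.011) and OGT fell by 0.43 (adjusted p = 0.0111). None of these 3 passed without shPKCi replicate 2 (adjusted p from 0.0512 to 0.0692). GFPT1 and GNPNAT1 also did not pass without shPKCi replicate 1, nor GFPT1 without shPKCi replicate 3 or after cyclic loess between arrays (adjusted p = 0.0513). UAP1 had 0.45 (adjusted p = 0.0504) and OGA -0.37 (adjusted p = 0.0826), and they passed in 7 and 4 alternatives. Of 9 measured pentose phosphate genes 1 fell, H6PD, by 0.63 (adjusted p = 0.00408). PGLS had -0.43 with no overlap of the groups (adjusted p = 0.0569), and passed in 4 alternatives. TKT, TALDO1 and PGD had values of -0.03, -0.07 and 0.12.

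Among regulators, TXNIP rose and EPAS1 fell. TXNIP, an arrestin that pulls SLC2A1 protein off the cell surface and is induced by glucose metabolites, had intensities of 109, 134.7 and 114 in shNT and of 318.9, 351 and 379 in shPKCi, and was 2.94-fold higher (log2 fold change 1.55, SE 0.12, limma adjusted p = 3.08e-05). ARRDC4, its relative, had 0.04 (adjusted p = 0.86). EPAS1, encoding HIF-2α, fell by 0.77 (adjusted p = 0.000867), and ARNT, the partner subunit, by 0.44 (adjusted p = 0.0251), though not without shNT replicate 1 or 3 or shPKCi replicate 1 (adjusted p up to 0.0976). The HIF1A transcript had a log2 fold change of -0.05 (95% confidence interval -0.36 to 0.26), with intensities of 2493, 1962 and 2841 in shNT and of 2465, 2368 and 2142 in shPKCi; HIF proteins were not measured. MYC had 0.23 (adjusted p = 0.149), and MLX, a partner of the glucose-sensing factors, rose by 0.39 (adjusted p = 0.0165), though not without shPKCi replicate 1 or 2 (adjusted p up to 0.0793).

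**Figure D4:**
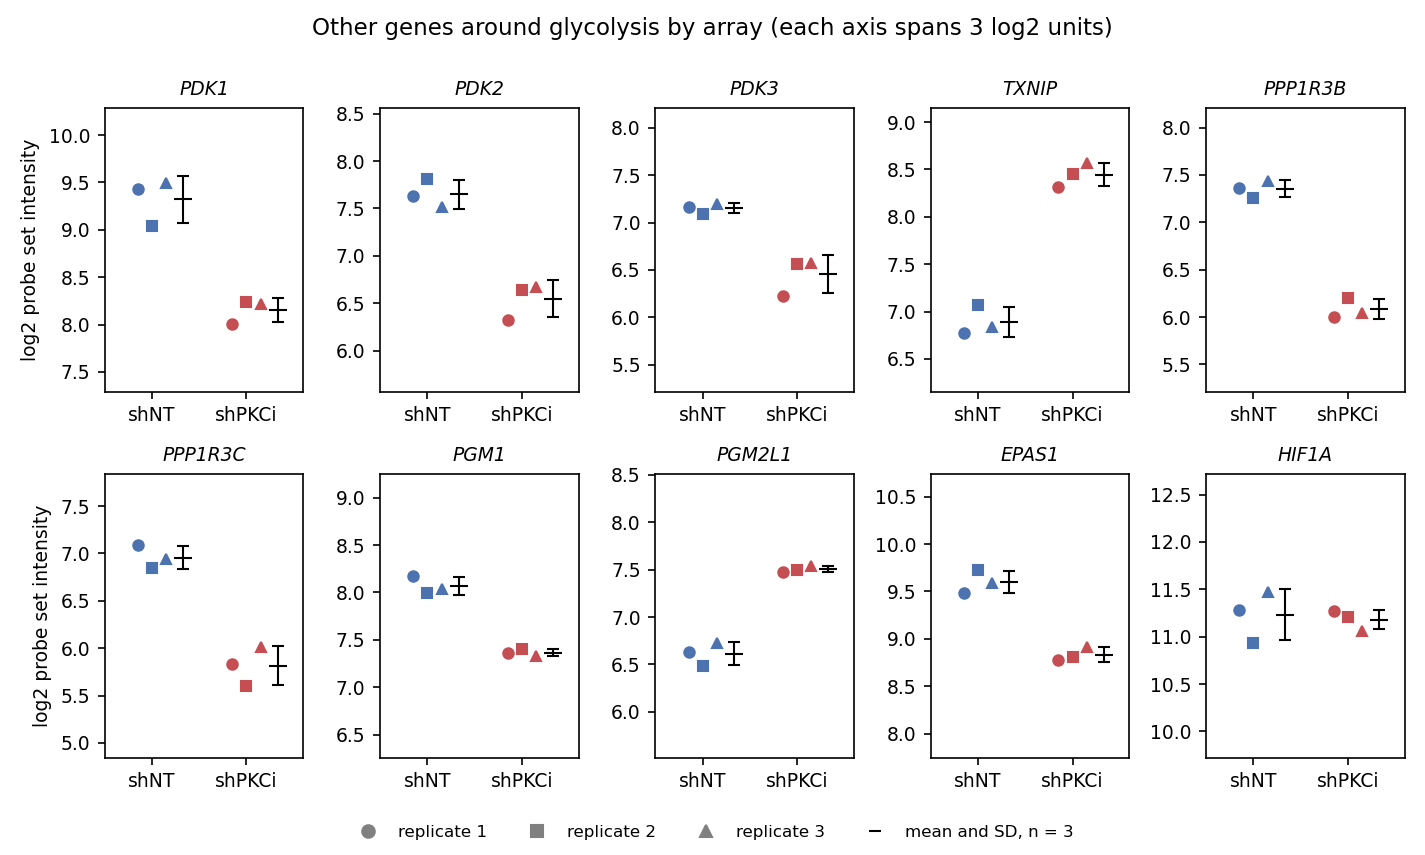
Log2 probe set intensity by array for 10 genes outside the set, drawn as for the set, with each axis over the same span. PDK1 to PDK3, PPP1R3B, PPP1R3C, PGM1 and EPAS1 are lower in all shPKCi arrays, TXNIP and PGM2L1 are higher in all, and HIF1A overlaps.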

How the data were processed

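Biotin-labelled total RNA of 6 samples was measured on 1 array per sample. The values deposited by the authors are intensities, 1 per probe set and array, that were not on a log scale; per the submitters' processing notes RMA was used, which corrects background, normalizes between arrays and summarises probes. No version or genome build was given in these sources. The log2 of the deposited intensities was taken without a pseudocount.

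Of 32321 probe sets, 19158 carried 1 gene symbol in the platform annotation, 1388 carried several and 11775 were unlisted. The brightest probe set stood for each of 18404 genes, with no filter on low values. Genes were compared with limma 3.58.1 (R 4.3.3) over all 6 arrays, with Benjamini-Hochberg adjustment over all genes; the median standard error was 0.11. In 10 simulations 200 of the 18404 genes were changed, with normal noise independent between genes. There 49.5% of log2 changes of 0.5 and 99.5% of log2 changes of 1 were recovered, with 6.24% false calls. More genes than that passed in the measured data, so that these rates need not hold there.

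The members and the 10 gene lists were chosen with earlier results of these data known. Named genes were all members, genes of the lists that passed, and fixed isozymes and partners. PDK4, PGLS, TKT, TALDO1, PGD, UAP1, OGA, ARRDC4 and MYC were named after their values were seen. Promoter sequences came from RefSeq (GRCh38.p14). Other settings tried were median centring, cyclic loess, a signal filter, the mean of probe sets, a trended robust variance, array weights, a replicate block and leaving out each array.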

Additional observations from a re-analysis of the deposited data

How the results depend on the processing

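Over 13 alternatives, the number of genes of the set past the threshold was 8, or 7 in the fits without shNT replicate 3 or without shPKCi replicate 1, 2 or 3, each time for want of PFKP. PFKFB4 and LDHA passed in none. The number of all genes past the threshold, 3406 here, ran from 2045 to 3894 with 1 array left out, and that of the 99 other genes of glucose metabolism, 26 here, from 16 to 28. Of these 26, 15 passed in every alternative run for them, 13 that fell and 2 that rose, TXNIP and PGM2L1. The other 11 lost the call in at least 1 fit without 1 array, and 13 genes gained one under some alternative. With each array centred on its median, 57.1% of the called genes were higher, and after cyclic loess between arrays 48.2%, against 51.6% here. Same-numbered arrays of the groups did not deviate together (r across genes = 0.12, -0.06 and -0.18). Arrays with different numbers had r from -0.17 to 0.21. Whether the numbers pair the arrays cannot be told from these values. With a replicate block 2978 of all genes, 25 of the 99 and 8 of the set passed. The largest dependence on the arrays was on shPKCi replicates 1 and 2, and the cause was not tested. No background level was measured here, so that how much of the signal of dim genes such as PFKFB4, SLC5A1 and ENO3 is background is not known, and 3 arrays a group limit the precision of every value.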
